A study of Homo sapiens with 6 samples.

Results

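The genes described here are the 10 core components of the microRNA pathway: DROSHA and DGCR8, XPO5, DICER1, TARBP2 and PRKRA, and the Argonaute genes AGO1, AGO2, AGO3 and AGO4, which the array annotation lists under the older symbols EIF2C1 to EIF2C4. They were found by symbol in the annotation of the array. Of the 10, 9 had a row of their own, each a single row, among 21921 genes with a row. DGCR8 had only a row that it shared with the microRNA genes MIR1306 and MIR3618, which is given here under all 3 names. All 10 rows were brighter than the median row of the array.

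The arrays hold RNA of INA-6, an established multiple myeloma (MM) cell line kept in medium with interleukin-6. Of 6 arrays, 3 came from cells given UNC1999, an inhibitor of the histone methyltransferase EZH2, and 3 from cells given UNC2400, the inactive control compound, each at 1 μM for 120 hours with medium and compound renewed at 72 hours. Each group is labelled as biological replicates 1 to 3 of this 1 line, so the spread is between its cultures and not between patients. Values are log2 expression values as deposited. The question here is how the genes that make and use microRNAs stood after EZH2 inhibition, and mature microRNAs, which the study followed too, are not analysed here.

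A microRNA is cut from its primary transcript in the nucleus by the Microprocessor, made of the nuclease DROSHA and its RNA-binding partner DGCR8. The hairpin precursor leaves the nucleus with XPO5, is cut again by DICER1 with its partners TARBP2 and PRKRA, and is loaded as a single strand into an Argonaute protein. The loaded Argonaute finds target mRNAs, which are then repressed and degraded through GW182 scaffolds. Of the human Argonautes, AGO2 is the one best known for cutting targets itself.

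The arrays correlated more closely within a group (Pearson r across rows of at least 0.9943) than between groups (at most 0.988). All 9 plasma cell markers measured, among them SDC1, were above the median row. Of these, 8 were lower and 1, CD38, was higher with UNC1999. With 1 array omitted, the call of CD38 stood in 2 of 6 cases (adjusted p up to 0.0861). The summed log2 level of the 9 markers was 64.56 to 66.5 with UNC1999 and 73.88 to 74.78 with UNC2400. Of 4 B cell markers none passed and 3 were brighter than the median row. PAX5 averaged 5.44 with UNC1999 and 5.41 with UNC2400, CD22 averaged 5.03 in both groups, CR2 averaged 4.87 with UNC1999 and 4.85 with UNC2400, and MS4A1 lay below the median row (4.39 with UNC1999 and 4.38 with UNC2400). The summed level of 6 monocyte markers was 28.51 to 28.8 with UNC1999 and 28.44 to 28.68 with UNC2400. Among 5 T cell markers CD3E was 1.24-fold higher, and among 6 stromal and epithelial markers KRT18 was 1.35-fold higher (up to 0.0743 with 1 array omitted). In RNA from a whole culture, fewer cells of a kind and less RNA per cell cannot be told apart, and the part of these markers in the results below was not tested.

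The pathway did not move as a block. AGO4, AGO1 and the DGCR8 row were higher with UNC1999. AGO2, XPO5 and PRKRA were lower, and DROSHA, DICER1, TARBP2 and AGO3 did not pass an adjusted p of 0.05 in limma, a moderated test fitted on all 65529 rows. On rows of their own, 2 of the 9 genes were higher, against 9.16% of all genes and 12.5% of genes above the median row. Another 3 were lower, against 7.32% and 10.3%. In either direction 16.5% of all genes passed, and 22.7% of genes brighter than the median row, while 9.39% of all rows passed. The groups did not overlap for these same 5 of the 9 genes, as for 37.8% of all genes. The median log2 difference of the 9 genes was -0.04, against 0.01 over all genes, and the median of its size was 0.11 against 0.05. The 37.8% and both medians over all genes include genes below the median row. All folds were small, with the largest at 1.35. The design text speaks of pairwise comparisons within replicates, but the study's methods do not say that the array test was paired. In a fit with the replicate number as a block, 3 of the 10 rows passed (AGO2, AGO4 and the DGCR8 row). AGO1, XPO5 and PRKRA missed the threshold there (limma adjusted p = 0.0947, 0.0661 and 0.0611).

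**Figure D1:**
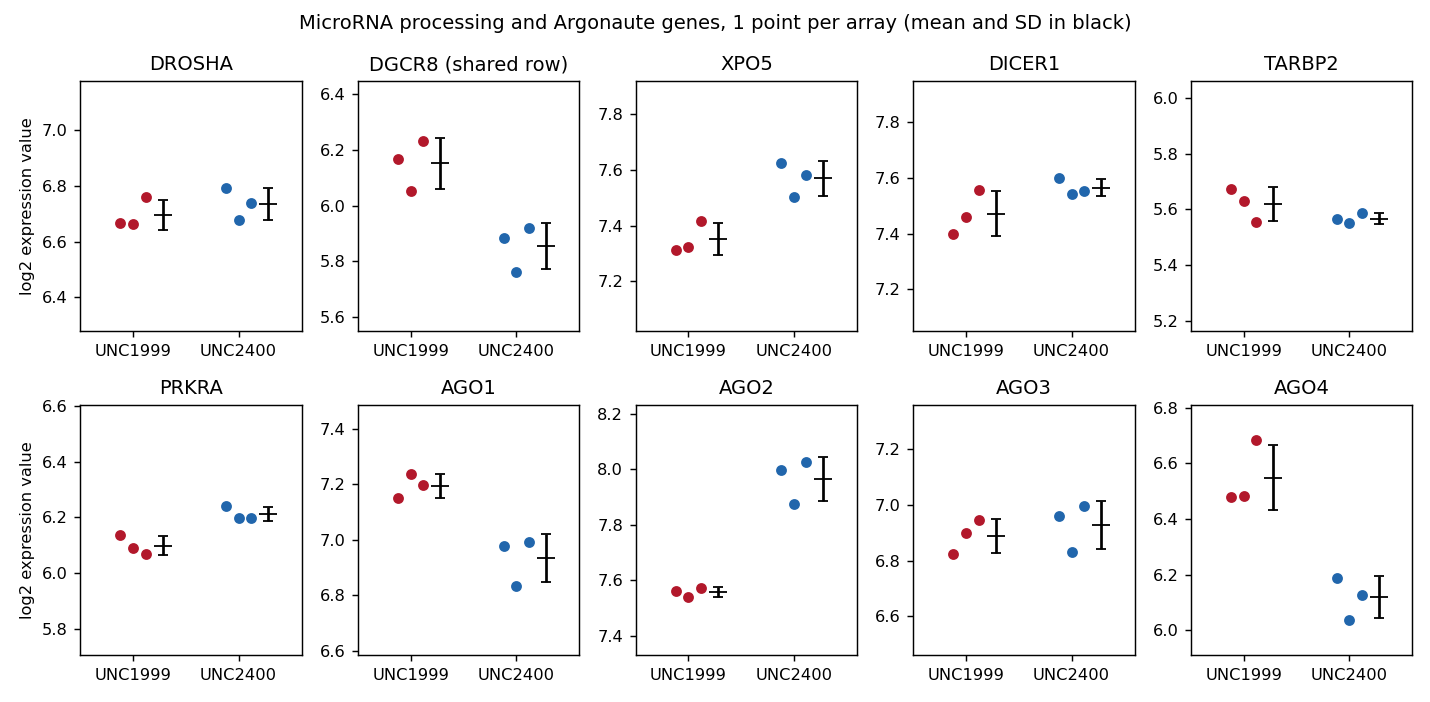
Log2 expression value of each of the 10 genes on each array, with UNC1999 arrays in red on the left and UNC2400 arrays in blue on the right. Black marks give the mean and SD of 3 arrays, and every panel spans the same log2 range. The UNC1999 arrays lie above all UNC2400 arrays for AGO1, AGO4 and the row shared by DGCR8, and below them for AGO2, XPO5 and PRKRA.

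DROSHA, the nuclease of the Microprocessor, read 6.67, 6.66 and 6.76 on the UNC1999 arrays and 6.79, 6.68 and 6.74 on the UNC2400 arrays. The groups overlapped, and the difference of -0.04 had a 95% interval of -0.14 to 0.06 (limma, adjusted p = 0.682). A change of DROSHA beyond 0.14 in either direction lies outside this interval.

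The row shared by DGCR8, MIR1306 and MIR3618 read 6.17, 6.05 and 6.23 with UNC1999 and 5.88, 5.76 and 5.92 with UNC2400. Every UNC1999 array lay above every UNC2400 array. The row was 1.23-fold higher (log2 difference 0.30 ± 0.06 SE, adjusted p = 0.0381 in limma). The call stood only without UNC1999 replicate 2 (adjusted p = 0.0464) and was lost without any other array (0.0681 to 0.123). It was also lost with the arrays centred on their medians (0.054) and with cyclic loess (0.0637). Both microRNA genes lie within the DGCR8 gene, so its own mRNA carries hairpins that the Microprocessor can cut, a known means by which the complex limits DGCR8. Whether the higher value comes from DGCR8 mRNA or from these hairpins was not tested. Their mature sequences from RefSeq (GRCh38.p14) are shown because the row is named for them, with the seed, bases 2 to 8, in capitals.
hsa-miR-3618, chr22:20085797-20085818, plus strand: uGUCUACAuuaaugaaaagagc
hsa-miR-1306-5p, chr22:20086072-20086093, plus strand: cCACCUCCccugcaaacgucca
hsa-miR-1306-3p, chr22:20086112-20086129, plus strand: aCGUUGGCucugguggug

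XPO5, the export receptor of precursor hairpins, was lower. It read 7.31, 7.32 and 7.42 with UNC1999 and 7.63, 7.50 and 7.58 with UNC2400, with no overlap. The difference was 1.16-fold (log2 -0.22 ± 0.04 SE, limma adjusted p = 0.0339). The call stood without UNC1999 replicate 3 (0.0276) and without UNC2400 replicate 2 (0.0305) and was lost without any of the other 4 arrays (0.0978 to 0.124). It was lost, too, with median centring (0.0506) and with a trended, robust prior (0.053).

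DICER1, which cuts the precursor in the cytoplasm, read 7.40, 7.46 and 7.56 with UNC1999 and 7.60, 7.54 and 7.55 with UNC2400. The highest UNC1999 array lay above 2 of the UNC2400 arrays. Its log2 difference of -0.09 had a 95% interval of -0.20 to 0.02 (adjusted p = 0.307 in limma). TARBP2, a partner of DICER1 with double-stranded RNA-binding domains, read 5.67, 5.63 and 5.56 with UNC1999 and 5.56, 5.55 and 5.59 with UNC2400. The groups overlapped here as well, with a difference of 0.05 and an interval of -0.03 to 0.13 (limma adjusted p = 0.469).

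PRKRA, the other such partner, whose protein PACT also activates the kinase PKR, was lower by a small and even amount. It read 6.13, 6.09 and 6.07 with UNC1999 and 6.24, 6.20 and 6.20 with UNC2400. No UNC1999 array reached the lowest UNC2400 array. The difference was 1.08-fold (log2 -0.11 ± 0.02 SE, limma adjusted p = 0.0454). This call was lost whichever array was omitted (adjusted p from 0.0537 without UNC1999 replicate 1 to 0.15 without UNC1999 replicate 2), with dim rows left out (0.077) and with the trended, robust prior (0.156).

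The Argonaute genes split in direction. AGO2 read 7.562, 7.539 and 7.572 with UNC1999 and 7.996, 7.875 and 8.024 with UNC2400. The 3 UNC1999 arrays lay close together (SD 0.02, against 0.08 with UNC2400), and all of them were below every UNC2400 array. AGO2 was 1.33-fold lower (log2 -0.41 ± 0.04 SE, 95% interval -0.51 to -0.31, limma adjusted p = 0.00446). It was the only one of the 10 genes whose call held whichever array was omitted (adjusted p from 0.00284 to 0.0292).

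AGO4 was the gene with the largest rise. Its values were 6.48, 6.48 and 6.68 with UNC1999 and 6.19, 6.04 and 6.13 with UNC2400, with UNC1999 replicate 3 the highest. The groups did not overlap, and the difference was 1.35-fold (log2 0.43 ± 0.07 SE, interval 0.26 to 0.60, limma adjusted p = 0.0172). Leaving out UNC1999 replicate 2 or UNC2400 replicate 3 took the adjusted p to 0.0524 and 0.0583, and the other 4 arrays left it below the threshold.

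AGO1 read 7.15, 7.24 and 7.20 with UNC1999 and 6.98, 6.83 and 6.99 with UNC2400, again without overlap. It was 1.20-fold higher (log2 0.26 ± 0.05 SE, limma adjusted p = 0.0297). Only without UNC2400 replicate 2 did the call stand (adjusted p = 0.027). It was lost without any of the other 5 arrays (0.0517 to 0.11). AGO3 read 6.824, 6.898 and 6.945 with UNC1999 and 6.959, 6.832 and 6.998 with UNC2400. The groups overlapped, and the difference of -0.04 had an interval of -0.17 to 0.09 (limma adjusted p = 0.76).

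**Figure D2:**
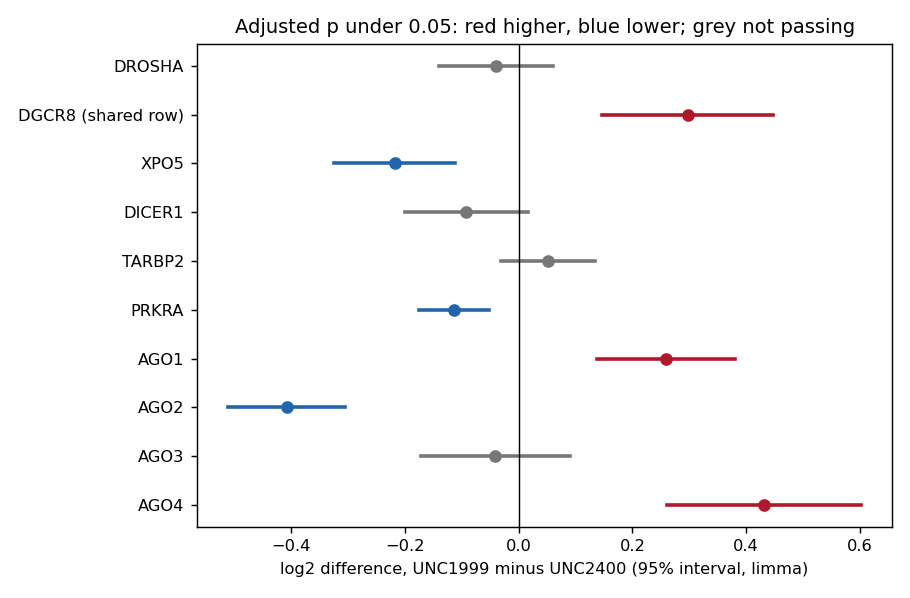
Log2 difference of each gene, UNC1999 minus UNC2400, with its 95% interval from limma (3 arrays a group). AGO4 (0.43), the row of DGCR8 (0.30) and AGO1 (0.26) lie above 0 and AGO2 (-0.41), XPO5 (-0.22) and PRKRA (-0.11) below it, while the intervals of the 4 grey genes include 0.

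UNC2400 replicate 2 was the lowest of its group for 9 of the 10 rows, as it was for 47.5% of the genes brighter than the median row, so part of the spread of the control arrays was shared between genes. Setting Argonaute genes against each other within an array removes what its array shares. Only the difference between groups is read here, since levels of different probe sets are not comparable. AGO4 minus AGO2 was -1.08, -1.05 and -0.89 with UNC1999 and -1.81, -1.84 and -1.90 with UNC2400, a change of 0.84. For AGO1 minus AGO2 the values were -0.41, -0.30 and -0.38 with UNC1999 and -1.02, -1.04 and -1.03 with UNC2400, a change of 0.67. Both differences were higher on every UNC1999 array than on any UNC2400 array. That separation was fixed by the values above, since AGO4 and AGO1 were each higher and AGO2 lower without overlap.

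The pairs with AGO3 also follow from the values above, since AGO3 itself differed by only -0.04 and its partners moved. AGO3 minus AGO2 changed by 0.37, AGO4 minus AGO3 by 0.47 and AGO1 minus AGO3 by 0.30. The smallest change was that of AGO4 minus AGO1, 0.17. In all 6 pairs the groups did not overlap. The exact two-sided permutation test gave p = 0.1 for each of the 6 pairs (0.1 after Benjamini-Hochberg adjustment), which is the smallest value that 3 arrays against 3 allow, so this test cannot reach the threshold.

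**Figure D3:**
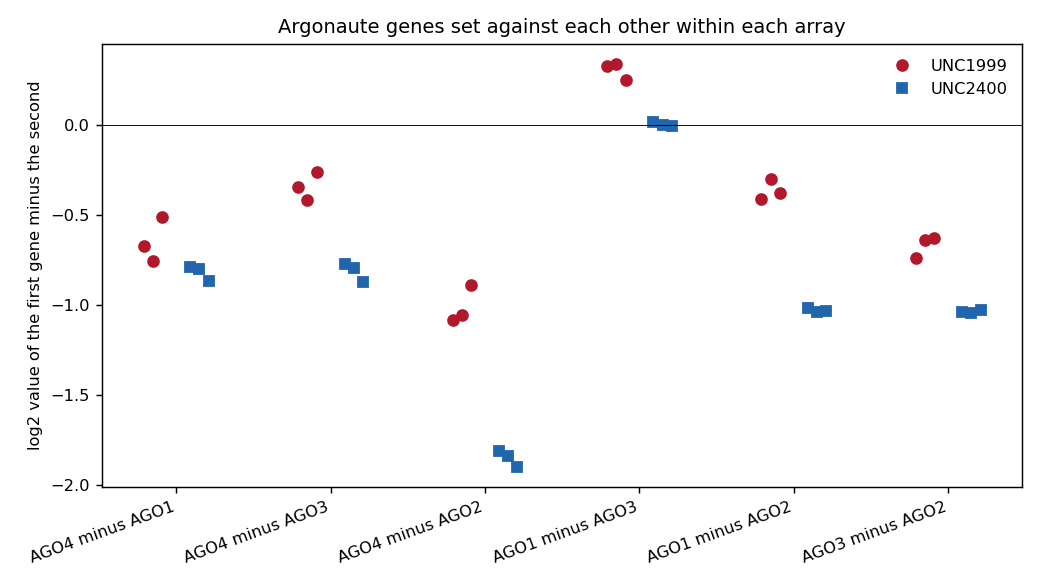
Difference in log2 value between 2 Argonaute genes on the same array, for the 6 pairs of the 4 genes, with UNC1999 arrays as red circles and UNC2400 arrays as blue squares. In every pair the 3 UNC1999 arrays lie above the 3 UNC2400 arrays, by the most for AGO4 minus AGO2 (0.84).

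AGO4, AGO1 and AGO3 lie side by side on chromosome 1, in this order, whereas AGO2 is on chromosome 8. The neighbours of the block were measured as well. CLSPN, which encodes the checkpoint adaptor claspin and lies next to AGO4, read 7.37, 7.39 and 7.68 with UNC1999 and 6.99, 6.95 and 6.95 with UNC2400. It was 1.43-fold higher (limma adjusted p = 0.0201, and 0.07 at most with 1 array omitted). C1orf216 and PSMB2, farther out on that side, had differences of 0.10 and 0.14 that did not pass (0.103 and 0.117). On the other side, TEKT2, ADPRS and COL8A2 had differences of 0.02, 0.05 and 0.03 (adjusted p of at least 0.735). The 3 genes that passed thus stood next to each other, with AGO3 beyond them.

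**Figure D4:**
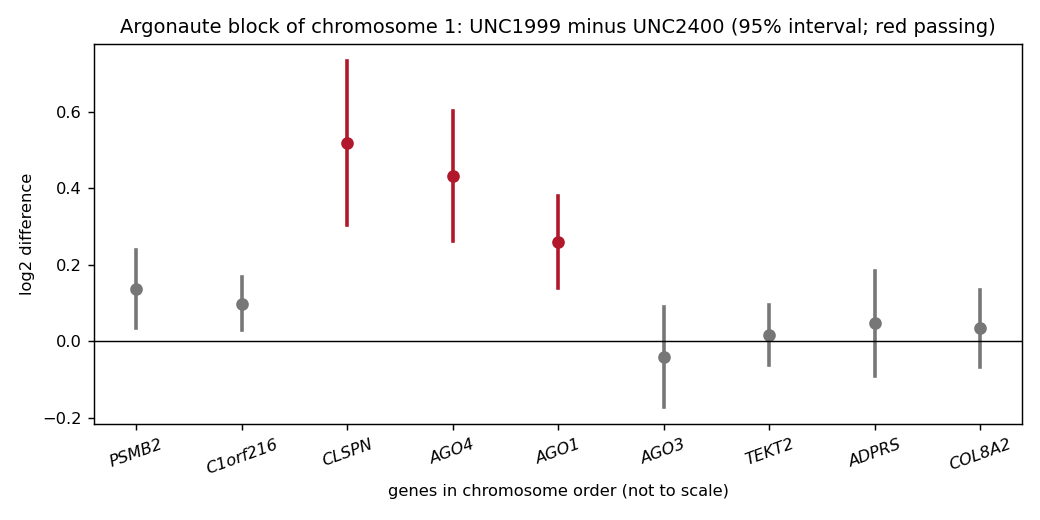
Log2 difference, UNC1999 minus UNC2400, with its 95% interval, for the Argonaute block of chromosome 1 and the 3 nearest measured genes on each side, in chromosome order. CLSPN (0.52), AGO4 (0.43) and AGO1 (0.26) passed, and AGO3 (-0.04) and the other neighbours did not.

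The promoter windows of the 3 Argonaute genes are shown because the genes adjoin each other but differed in response. Each is a RefSeq window (GRCh38.p14) of 250 bases before and 50 after a transcription start. Capitals mark CG dinucleotides, where DNA can be methylated, and do not show that it is.
AGO4, chr1:35807766-35808065, plus strand: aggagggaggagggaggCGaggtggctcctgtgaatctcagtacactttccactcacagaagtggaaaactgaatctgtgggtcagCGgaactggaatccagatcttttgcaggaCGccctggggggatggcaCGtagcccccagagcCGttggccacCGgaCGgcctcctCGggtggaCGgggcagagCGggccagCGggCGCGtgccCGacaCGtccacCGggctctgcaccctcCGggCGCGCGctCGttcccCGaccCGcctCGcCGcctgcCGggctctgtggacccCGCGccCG
AGO1, chr1:35882959-35883258, plus strand: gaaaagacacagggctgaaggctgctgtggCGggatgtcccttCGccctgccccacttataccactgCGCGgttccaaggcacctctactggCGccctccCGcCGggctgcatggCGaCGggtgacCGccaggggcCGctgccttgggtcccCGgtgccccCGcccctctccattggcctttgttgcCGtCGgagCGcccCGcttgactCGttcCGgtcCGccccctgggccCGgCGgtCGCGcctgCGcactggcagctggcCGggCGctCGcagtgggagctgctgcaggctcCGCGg
AGO3, chr1:35930855-35931154, plus strand: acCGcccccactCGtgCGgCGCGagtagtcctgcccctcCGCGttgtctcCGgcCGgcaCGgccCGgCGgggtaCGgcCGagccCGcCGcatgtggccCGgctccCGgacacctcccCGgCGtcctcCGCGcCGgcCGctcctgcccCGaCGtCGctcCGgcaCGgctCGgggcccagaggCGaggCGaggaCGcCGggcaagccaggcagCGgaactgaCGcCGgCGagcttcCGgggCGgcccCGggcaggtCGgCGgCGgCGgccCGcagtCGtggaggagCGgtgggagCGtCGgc
The windows of AGO4 and AGO1 held 29 and 30 CG dinucleotides, and that of AGO3 held 50. At least as many were found in 24.2%, 22.4% and 1.3% of all 35116 windows, whose median was 14. The letters CACGTG, an E-box that MYC can bind and which reads the same on both strands, were in none of the 3 windows and in 7.3% of all windows. The windows of DGCR8, XPO5 and DROSHA, members with 1 window each, held 57, 41 and 28 CG dinucleotides. These counts describe the letters only, and a relation between them and the response was not tested. No chromatin or DNA methylation of these arrays' cells is analysed here.

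Around the core genes, 119 other genes of the pathway were listed by role, and 107 had a row of their own. Of these 16 were higher and 13 lower with UNC1999, and 78 did not pass. Most (102 of the 107) were brighter than the median row. The 27.1% that passed compare with 22.7% of all genes of that brightness, of which 12.5% were higher and 10.3% were lower. The counts of single lists below are of few genes and describe the lists only. Of the 29 that passed, 12 kept the call whichever array was left out, 6 of them higher and 6 lower.

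Of 13 cofactors of the Microprocessor, 4 were higher and none lower, with a median of 0.11 (30.8% passing, against 22.7% of bright genes). DHX9, an RNA helicase, read 8.56, 8.64 and 8.77 with UNC1999 and 8.16, 8.10 and 8.14 with UNC2400 (1.43-fold, limma adjusted p = 0.00484). SAFB2, a scaffold attachment factor, was 1.35-fold higher, and SRRT, which links the cap-binding complex to microRNA processing, was 1.26-fold higher. SAFB, the relative of SAFB2, was 1.21-fold higher, a call lost without UNC2400 replicate 1 (adjusted p = 0.0517). DDX17, a helicase of the Microprocessor, differed by -0.02 with an interval of -0.16 to 0.11.

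For export, 3 of only 5 genes were higher and none lower (median 0.14), by small folds. RANGAP1, RAN and RANBP1, which act in the RAN cycle that drives exportins, were 1.19-fold, 1.11-fold and 1.10-fold higher (limma adjusted p = 0.0184, 0.0425 and 0.0282). With 1 array omitted, these calls stood in 3, 1 and 1 of 6 cases (up to 0.0722, 0.143 and 0.0984). With the replicate number as a block, RAN and RANBP1 did not pass (0.0856 and 0.0922). XPO1 and NUP153, also of this list, differed by 0.05 and -0.03 and did not pass (limma adjusted p = 0.816 and 0.905). The shared row of RCC1, the exchange factor of RAN, did not pass either (0.145).

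Genes of precursor tailing and decay had 3 of 11 lower and none higher (median -0.06), and these 27.3% lay near the same background. TUT7, a uridylyl transferase that tails precursors of the let-7 family, read 6.52, 6.55 and 6.80 with UNC1999 and 7.12, 7.07 and 7.23 with UNC2400 (1.43-fold lower, limma adjusted p = 0.0188). TENT2, which adds adenosines, was 1.21-fold and PNPT1, an exoribonuclease of mitochondria, 1.19-fold lower. With 1 array omitted, the 3 calls stood in 2, 3 and 1 of 6 cases (up to 0.0786, 0.103 and 0.146). LIN28B, the let-7 precursor-binding protein, differed by -0.06 with an interval of -0.15 to 0.04.

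Chaperones that load Argonautes had 3 of 9 higher and 1 lower. DNAJB1, a co-chaperone of HSP70, was 1.53-fold higher, STIP1, which joins HSP70 to HSP90, 1.27-fold and AHSA1, which activates HSP90, 1.25-fold. These 3 calls stood in 2, 1 and 2 of 6 cases with 1 array omitted (at most 0.0814, 0.0871 and 0.0897). FKBP5, another co-chaperone of HSP90, was 1.42-fold lower, and its call held whichever array was omitted (up to 0.032).

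Among 12 proteins that modify or bind Argonautes, 2 were higher and 3 lower, and all 5 calls held whichever array was omitted. P4HA1 and P4HB are the subunits of a prolyl hydroxylase of collagen that also acts on AGO2. P4HA1 read 6.21, 6.14 and 6.35 with UNC1999 and 7.93, 7.83 and 7.96 with UNC2400, 3.18-fold lower (limma adjusted p = 0.000576). P4HB was 1.31-fold lower. LIMD1, a LIM protein that binds Argonautes, was 1.36-fold lower. ANKRD52, a subunit of the phosphatase that acts on AGO2, was 1.38-fold higher, and ZSWIM8, the ligase adaptor of target-directed microRNA decay, 1.22-fold higher. ZSWIM8 read 6.25, 6.24 and 6.21 with UNC1999 and 5.94, 5.92 and 5.98 with UNC2400, a narrow spread in both groups.

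Of the GW182 scaffolds, TNRC6B and TNRC6A lay higher by 0.20 and 0.12 without passing (limma adjusted p = 0.0618 and 0.163), and the row shared by TNRC6C and TNRC6A by 0.06 (0.168). That shared row averaged 4.82 with UNC1999 and 4.76 with UNC2400, near the median row. Deadenylation genes had 4 of 18 lower and none higher (median 0.03), or 22.2%, about the share among bright genes. CNOT6L, a deadenylase of the CCR4-NOT complex, read 7.01, 7.06 and 7.10 with UNC1999 and 7.84, 7.77 and 7.79 with UNC2400, 1.68-fold lower (limma adjusted p = 0.000694). BTG2 and BTG1, adaptors of that complex, differed by -0.59 and -0.26 on the log2 scale, and the call of BTG1 was lost with 1 array omitted (up to 0.0893). CNOT7, the other deadenylase that passed, was 1.17-fold lower (up to 0.096). CNOT1, its scaffold, differed by -0.13 with an interval of -0.27 to 0.00.

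Decapping and decay genes had 1 of 18 higher and 2 lower. DDX6, a helicase that couples repression to decapping, was 1.37-fold higher whichever array was left out (limma adjusted p = 0.00598, up to 0.0355). XRN1, the exonuclease that degrades decapped mRNA, was 1.48-fold lower (0.0135, but 0.0636 at most with 1 array left out), and DCP1A, a decapping cofactor, 1.25-fold lower (0.0156, at most 0.0713). Helicases and nucleases found with the silencing complex had 2 of 8 higher, MOV10 by 1.30-fold and FMR1 by 1.17-fold. Their calls stood in 3 and 1 of 6 cases with 1 array left out (up to 0.0968 and 0.122).

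The PIWI genes, relatives of the Argonautes that act in the germ line, stayed near the floor. PIWIL1, PIWIL2 and PIWIL3 averaged 4.38, 4.61 and 4.40 with UNC1999 and 4.37, 4.61 and 4.39 with UNC2400, all below the median row, and the row of PIWIL4 and FUT4 was at 4.41 and 4.40. Of 8 genes that respond to double-stranded RNA, 1 was higher, RIGI (1.18-fold, limma adjusted p = 0.0215, and 0.063 at most with 1 array omitted). RIGI averaged 5.11 with UNC1999 and 4.87 with UNC2400, near the median row. EIF2AK2, which encodes PKR, the kinase that PACT activates, is named after its value was seen. It read 7.82, 7.88 and 8.18 with UNC1999 and 7.55, 7.55 and 7.54 with UNC2400 and missed the threshold at an adjusted p of 0.0502 in limma.

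**Figure D5:**
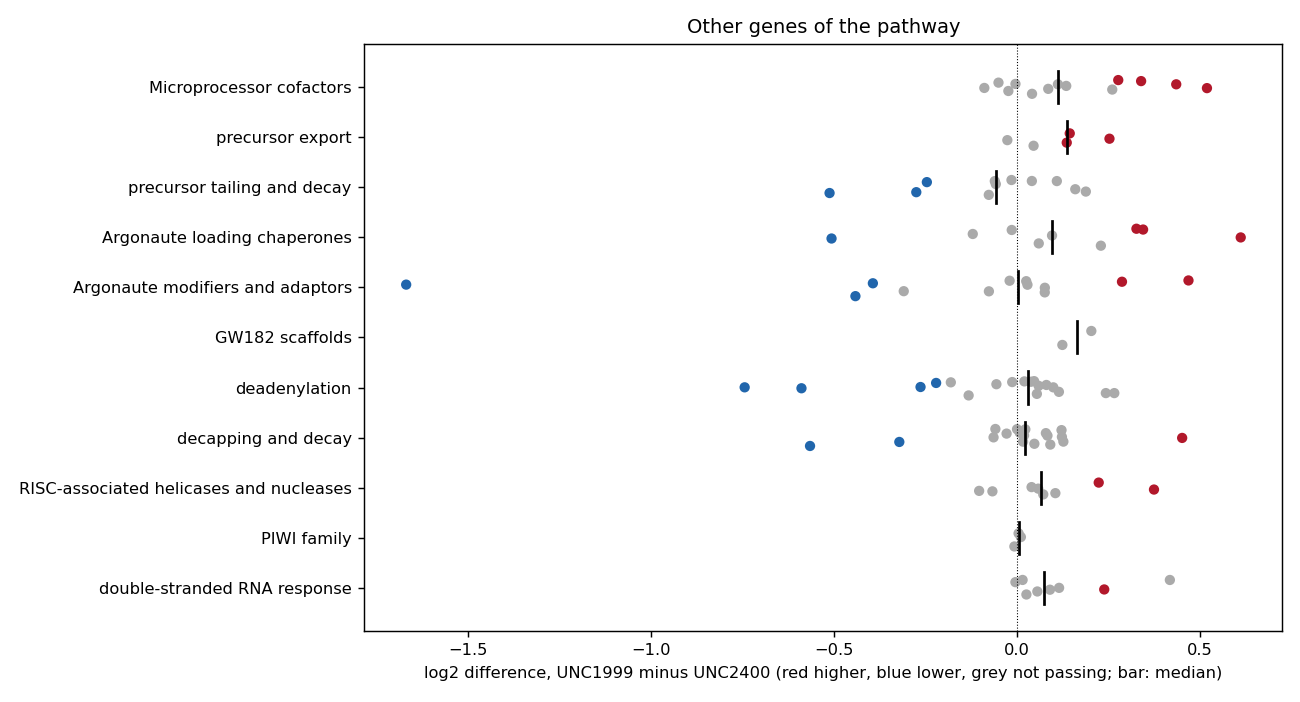
Log2 difference, UNC1999 minus UNC2400, of each measured gene in the lists of other pathway genes, 1 point per gene, with the median of each list as a black bar. P4HA1 stands apart at -1.67, and the medians of the lists lie between -0.06 and 0.16.

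The array also carries microRNA genes, measured through their hairpins or primary transcripts and not as mature microRNAs. Of 1049 such rows, 18 were higher and 17 lower, and 1014 did not pass. These 3.34% compare with 9.39% of all rows. Among the 435 brighter than the median row, 16 were higher and 15 lower, or 7.13%, against 17.4% of all rows of that brightness. The median difference over all of them was 0.001.

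MIR3143 read 9.42, 9.27 and 8.93 with UNC1999 and 7.81, 7.43 and 7.68 with UNC2400 (2.95-fold higher, limma adjusted p = 0.00399). MIR223, of a microRNA best known from myeloid cells, and MIRLET7I, of the let-7 family, were 1.15-fold and 1.25-fold higher (0.0054 and 0.00826). On its mature microRNA arrays of INA-6, with DMSO named as control, the study listed let-7i-5p as lower and miR-223-3p as higher with UNC1999. The row of MIRLET7I thus went the other way from its mature microRNA, and the reason was not tested. MIR99AHG, a host transcript of several microRNAs, was 1.15-fold lower, MIR4712 1.35-fold and MIR3136 1.22-fold (0.00288, 0.00413 and 0.00606). All 6 calls held whichever array was omitted. Apart from MIR3143, the higher of the group means was between 4.84 and 5.47, near the median row of 4.85. Mature sequences from RefSeq (GRCh38.p14), found for 4 of these 6 genes, are shown to identify what the rows encode, with the seed in capitals. No 2 of the 11 mature sequences printed here share a seed.
hsa-miR-223-5p, chrX:66018895-66018916, plus strand: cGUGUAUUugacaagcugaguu
hsa-miR-223-3p, chrX:66018937-66018958, plus strand: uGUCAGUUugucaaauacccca
hsa-let-7i-5p, chr12:62603691-62603712, plus strand: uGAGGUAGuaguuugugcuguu
hsa-let-7i-3p, chr12:62603747-62603768, plus strand: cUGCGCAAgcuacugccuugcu
hsa-miR-4712-5p, chr15:50360337-50360358, plus strand: uCCAGUACaggucucucauuuc
hsa-miR-4712-3p, chr15:50360385-50360405, plus strand: aAUGAGAGaccuguacuguau
hsa-miR-3136-5p, chr3:69049004-69049026, minus strand: cUGACUGAauagguagggucauu
hsa-miR-3136-3p, chr3:69048966-69048987, minus strand: uGGCCCAAccuauucaguuagu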

How the data were processed

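RNA of 6 INA-6 cultures was hybridised to Affymetrix arrays of human transcripts. The values are log2 expression values deposited by the authors, who used GeneSpring 13. How they were summarised and normalized, and on which genome build, is not given in the sources used here. In the array annotation, 20515 of 65529 rows had 1 gene symbol that is current in RefSeq, 2540 had 1 updated through a synonym, 74 had 1 kept as given, 1221 had several and 41179 had none. A gene on several rows (473 genes) was represented by the row with the highest mean. The table held 0 columns of other samples. The array gives no depth, and 3 arrays a group limit the precision.

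Differences, UNC1999 minus UNC2400, were fitted with limma (version 3.58.1, R 4.3.3; lmFit and eBayes, two-sided, with no term but the group), and p-values were adjusted by Benjamini-Hochberg over all rows with a threshold of 0.05. On simulated arrays with 200 changed rows, 37 of 100 rows changed 1.25-fold and 68 of 100 changed 1.5-fold were recovered, with 3 false calls. In the data 6154 rows passed, so the adjustment was stricter on the simulated arrays. How often changes of the size seen here were missed in the data was thus not measured. Groups follow the labels, which name UNC2400 as the control, whereas the study's text names DMSO for this array experiment. The design text speaks of pairwise comparisons within replicates without naming a shared culture or day, so the fit was unpaired and the fit with the replicate number was an alternative. Other alternatives left out each array, renormalized, changed the prior, left out dim rows or used the thresholds of the methods. A call described as lost with 1 array omitted was lost without at least 1 array, and in several cases without most of them. Members and lists were chosen with earlier results of these data known. Besides the 10 members, up to 3 passing genes per list and direction were named, and every gene of lists of up to 4, and plasma cell markers. Other genes named, such as DDX17, SAFB, LIN28B, CNOT1 and CNOT7, were chosen after their values were seen. Exact permutation tests used scipy 1.17.1 in Python 3.11.15.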

Additional observations from a re-analysis of the deposited data

How the results depend on the processing

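All 10 genes kept the sign of their difference under every alternative run. AGO1, AGO2 and AGO4 stayed past the threshold under each change of scaling, prior or filter, but the number of member rows past it moved, 6 in the fit reported. With 1 array left out it was between 1 and 4, and 22 of 36 single calls were lost. It was 4 with median centring (lost: XPO5 and the DGCR8 row), 5 with cyclic loess (the DGCR8 row), 6 with quantile normalization, 4 with a trended, robust prior (XPO5 and PRKRA) and 5 without dim rows (PRKRA). A change of a row for a gene could not alter it, since each member had 1 row. At the thresholds of the methods, a fold of 1.5 or more with an unadjusted p no higher than 0.02, it was 0 in limma, with 6 at an unadjusted p under 0.05, because no member differed by 1.5-fold.

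Deviations from the group means correlated at 0.0554, 0.0834 and -0.0121 between equally numbered arrays, across all rows with dim ones included. Between arrays of unequal number the values ran from -0.0789 to 0.0331. These correlations do not settle whether the arrays were paired. No shared culture or day is named, so the pairing that the design text implies was run only as an alternative. With the replicate block, 3 member rows passed (AGO2, AGO4 and the DGCR8 row), as did 4262 of all rows, against 6154 without it, and 20 pathway genes, against 29. The named pathway calls that the block ended were RAN, RANBP1, TENT2, PNPT1, CNOT7, BTG1, XRN1, MOV10 and FMR1 (limma adjusted p between 0.0529 and 0.131).

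Over all rows the number past the threshold was between 2914 and 6513 with 1 array left out and 1072 at the thresholds of the methods. For the pathway genes it was between 14 and 29 with 1 array left out and 4 at those thresholds (P4HA1, CNOT6L, DNAJB1 and BTG2). The cause of the losses was not tested.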

Other observations

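The microRNA genes that the study followed by PCR also had rows on these arrays, looked up after the other results were known. By PCR in INA-6, the study reported primary and mature miR-125a, miR-320c and miR-494 as higher with UNC1999, and miR-126 as not. That PCR is a different assay and named DMSO as its control. The rows of MIR125A, MIR320C1, MIR320C2 and MIR494 did not show the rise, and the reason was not tested. MIR125A read 5.68, 5.78 and 5.64 with UNC1999 and 5.62, 5.83 and 5.75 with UNC2400, with overlapping groups (limma adjusted p = 0.834). MIR320C1 and MIR320C2 were near the floor, between 4.36 and 4.53 with UNC1999 and between 4.37 and 4.59 with UNC2400 (0.35 and 0.936). MIR494 read 5.05, 5.14 and 5.06 with UNC1999 and 5.03, 5.65 and 5.00 with UNC2400, where UNC2400 replicate 2 stood apart (adjusted p = 0.757). Of the same family as MIR320C1, MIR320A was 1.22-fold higher (0.0309, up to 0.113 with 1 array left out) and MIR320E 1.33-fold lower (0.0223, up to 0.0897). MIR126 and the rows of MIR320B1, MIR320B2, MIR320D1 and MIR320D2 did not pass (adjusted p of at least 0.282).

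Listed genes on shared rows were left out of the counts above. Their values are given here, chosen after they were seen. The row of SND1, a nuclease found with the silencing complex, and SND1-IT1 was 1.34-fold lower (limma adjusted p = 0.00241, and 0.016 at most with 1 array omitted). The row of KHSRP, a binding protein of let-7 precursors, and MIR3940 was 1.16-fold higher (0.0179, up to 0.0732). That of CDC37, a co-chaperone of HSP90, and MIR1181 was 1.22-fold higher (0.043), a call lost whichever array was omitted (up to 0.119). The rows of DDX5 with MIR3064 and of HNRNPA1 with its copies differed by 0.08 and 0.10 and did not pass (0.633 and 0.4). The row of TSNAX, a subunit of the nuclease activator C3PO, with DISC1 and TSNAX-DISC1 was 1.10-fold higher (limma adjusted p = 0.0104), a call lost without UNC1999 replicate 2 (0.0529). This row averaged 4.91 with UNC1999 and 4.77 with UNC2400, near the median row. The row of HSPA8, the constitutive HSP70, with SNORD14C and SNORD14D differed by 0.47 and that of RCC1, the exchange factor of RAN, with SNHG3 and SNORA73A by 0.09, and neither passed (0.0533 and 0.145).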
